A study of Mus musculus with 6 samples.

Results

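The primitive endoderm regulators and endocytic receptors described here are 9 genes taken by their symbols from a count table of 19713 genes. They are the transcription factor genes Gata4, Gata6, Sox17, Sox7 and Foxa2, the receptor genes Cubn, Amn and Lrp2, and the adaptor gene Dab2. All 9 were found and all 9 were among the 15287 genes tested, which had a normalized count (reads divided by 1 size factor per library) of at least 10 in at least 2 libraries. Foxa2 passed that filter only through its WT libraries. RNA sequencing was done on mouse embryonic stem (ES) cells of 3 genotypes with 2 libraries each, numbered replicate 1 and replicate 2. KO cells lack THAP1 and carry the Thap1 exon 2 deletion, C54Y cells are homozygous for the C54Y missense change in THAP1, and WT cells carry neither. THAP1 is a zinc finger transcription factor. All cells were derived from C57Bl/6 blastocysts and were grown on irradiated mouse embryonic fibroblasts with 15% fetal calf serum and leukemia inhibitory factor (LIF) at 1000 units/ml, and no drug or differentiation treatment is named. The labels do not say whether the libraries of a genotype came from separate clones or cultures, so the p-values measure only the spread between these samples, which may be technical.

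The primitive endoderm is the extraembryonic layer that forms beside the pluripotent epiblast in the blastocyst and later gives the visceral and parietal endoderm of the yolk sac. GATA6 specifies it in opposition to NANOG under FGF signalling, and GATA4, SOX17 and SOX7 act after GATA6, while FOXA2 is a forkhead factor of the visceral endoderm and of definitive endoderm. The visceral endoderm feeds the early embryo by endocytosis. Cubilin (Cubn) is a large ligand-binding receptor with no transmembrane segment, amnionless (Amn) anchors it in the membrane, megalin (Lrp2) is a receptor of the LDL receptor family that works with it, and DAB2 links the receptors' tails to clathrin. ES cells in serum and LIF can hold a minor population that expresses primitive endoderm genes.

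The libraries held 31774656 to 46772996 reads, with reads on 17061 to 18481 genes. Libraries with the same replicate number deviated from their genotype means together (correlations across genes of 0.869 to 0.907). The comparisons below were made within replicate number. Thap1, the targeted gene, had normalized counts of 1975 and 1687 in KO, 2253 and 2533 in C54Y, and 433 and 701 in WT libraries. Counts per gene cannot show whether exon 2 or the C54Y codon is altered, so they do not check the labels. The ES cell markers fixed for the check of cell type all had reads in every library, and their 12 genes together took 0.642% to 1.22% of reads.

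The sequences before the start sites of the receptor and adaptor genes are shown because these genes were all called lower in KO than in WT below. In C54Y against WT, Lrp2 was not called. Each is the 250 bases before a RefSeq start site, 5′ to 3′ on the gene's strand, in build GRCm38.p6. Capitals mark matches to 4 motifs searched on both strands. These were GATAA for GATA factors, ACAAT for SOX factors, TGTTTAC for FOXA factors, and TNNGGCA, which holds the GGCA core of the THAP1 motif. The spacing of its T was not checked against THAP1 sites, so a TNNGGCA match is not called a THAP1 site. The Cubn window is chr2:13491877-13492126 on the minus strand, the Amn window is chr12:111270846-111271095 on the plus strand, the Lrp2 window is chr2:69586030-69586279 on the minus strand, and the window of the first of the Dab2 start sites is chr15:6299539-6299788 on the plus strand.
Cubn: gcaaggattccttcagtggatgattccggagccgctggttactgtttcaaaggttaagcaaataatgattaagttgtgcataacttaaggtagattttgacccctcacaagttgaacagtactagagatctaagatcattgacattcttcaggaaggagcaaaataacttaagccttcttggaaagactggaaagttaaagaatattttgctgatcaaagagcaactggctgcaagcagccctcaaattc
Amn: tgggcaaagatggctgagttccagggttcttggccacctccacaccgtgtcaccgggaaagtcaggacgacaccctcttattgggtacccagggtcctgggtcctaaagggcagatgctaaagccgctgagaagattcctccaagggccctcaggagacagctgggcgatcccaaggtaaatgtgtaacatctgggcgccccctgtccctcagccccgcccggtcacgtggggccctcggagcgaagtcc
Lrp2: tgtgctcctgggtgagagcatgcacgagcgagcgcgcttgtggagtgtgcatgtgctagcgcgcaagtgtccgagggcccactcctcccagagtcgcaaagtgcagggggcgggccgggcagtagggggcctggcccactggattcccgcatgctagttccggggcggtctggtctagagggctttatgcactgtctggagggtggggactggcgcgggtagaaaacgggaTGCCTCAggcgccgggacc
Dab2: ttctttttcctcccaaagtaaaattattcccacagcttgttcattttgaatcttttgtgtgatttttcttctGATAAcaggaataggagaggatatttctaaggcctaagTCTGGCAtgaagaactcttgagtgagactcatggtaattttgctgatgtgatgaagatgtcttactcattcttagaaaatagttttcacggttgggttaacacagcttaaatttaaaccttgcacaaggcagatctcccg

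The Cubn and Amn windows held no match to any of the 4 motifs. The Lrp2 window held TGCCTCA, the TNNGGCA motif on the other strand, 19 bases before the start. The Dab2 window held GATAA 178 bases and TCTGGCA 140 bases before the start, and the window of the other Dab2 start site held no match. Foxa2 has 3 annotated start sites, whose windows held 3 TNNGGCA matches, no match, and 1 GATAA with 1 TNNGGCA match. No matches overlapped. Among 32851 windows of the same length, 22.6% held GATAA, 27.7% ACAAT, 3.17% TGTTTAC and 34.7% TNNGGCA. The windows of Cubn and Dab2 shown above were 39.6% and 36.8% G and C, those of Amn and Lrp2 61.2% and 66.4%, and all windows together 53.2%. A match describes the letters only.

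The first comparison asks how the 9 genes differ in cells without THAP1. Between KO and WT cells 8 of the 9 genes fell, by 3.96-fold (Gata4) to 14.3-fold (Cubn), and Sox7 did not pass the test. The 8 include Foxa2, which passed the filter only through its WT libraries, so that it could only come out lower in the mutants. Across all genes tested 7.41% were called lower in KO, by limma with Benjamini-Hochberg adjustment over all genes at 0.05. The 9 genes were chosen with earlier results of these data known. Shares of all genes, here and below, are therefore printed as background and are no test of the set. These are bulk libraries, so fewer cells of a kind and less RNA per cell cannot be told apart.

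Among the transcription factors, 4 of 5 fell in KO. Gata6, the first of these factors to act in the lineage, had normalized counts of 35.6 and 24.2 in KO replicates 1 and 2, against 154 and 169 in WT. Both WT libraries were above every KO library, and the log2 fold change was -2.38 ± 0.34 (standard error, n = 2 each; adjusted p = 0.0029, limma). Gata4, whose factor maintains the endoderm program, had 149 and 129.8 in KO and 595 and 521 in WT, with a log2 fold change of -1.98 ± 0.22 (adjusted p = 0.00106, limma) and nearly equal differences in replicate 1 (-1.98) and replicate 2 (-1.99).

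Sox17, an HMG-box factor of primitive and definitive endoderm, had 25.2 and 10.2 in KO libraries and 102 and 136 in WT libraries. Its KO and WT libraries did not overlap, although the difference was -1.93 in replicate 1 and -3.51 in replicate 2, and the log2 fold change was -2.72 ± 0.49 (adjusted p = 0.00754, limma). Foxa2 was the least abundant of the set, with 3 reads in each KO library against 51 and 33 reads in WT libraries, or normalized counts of 2.61 and 3.82 in KO and 38.1 and 42.5 in WT. The KO level was 0.0684 of WT in replicate 1 (95% exact interval of the ratio 0.0137 to 0.211, counting error only) and 0.0899 in replicate 2 (0.0176 to 0.287), and the fitted log2 fold change was -3.03 ± 0.47 (adjusted p = 0.00444, limma). Sox7, a SoxF relative of Sox17 on the same chromosome as Gata4 (14), had 69.5 and 63.6 in KO and 94.1 and 148 in WT. Its KO libraries lay below both WT libraries, but its log2 fold change of -0.81 ± 0.31 was not called (adjusted p = 0.114, limma), with a 95% interval of -1.52 to -0.10.

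The 3 receptor genes and the adaptor gene fell in KO, 4 of 4. Cubn had 125 and 45.8 in KO and 1626 and 760.5 in WT, the largest difference of the set in this comparison, with a log2 fold change of -3.84 ± 0.25 (adjusted p = 0.000195, limma). Amn, the membrane partner of cubilin, had 42.6 and 107 in KO and 223 and 452 in WT, a log2 fold change of -2.20 ± 0.26 (adjusted p = 0.00138, limma). Within each replicate both partners were lower in KO, though Cubn was lower and Amn higher in replicate 2 than in replicate 1 of each genotype.

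Lrp2, the megalin gene, had 911 and 541 in KO and 9841 and 3106 in WT, and fell by 2.97 ± 0.25 on the log2 scale (adjusted p = 0.000374, limma). Dab2 had 130.3 and 165 in KO and 1006 and 1053 in WT, and fell by 2.79 ± 0.21 on the log2 scale (adjusted p = 0.000224, limma). The WT libraries of Dab2 lay close together, and both were far above both KO libraries.

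**Figure D1:**
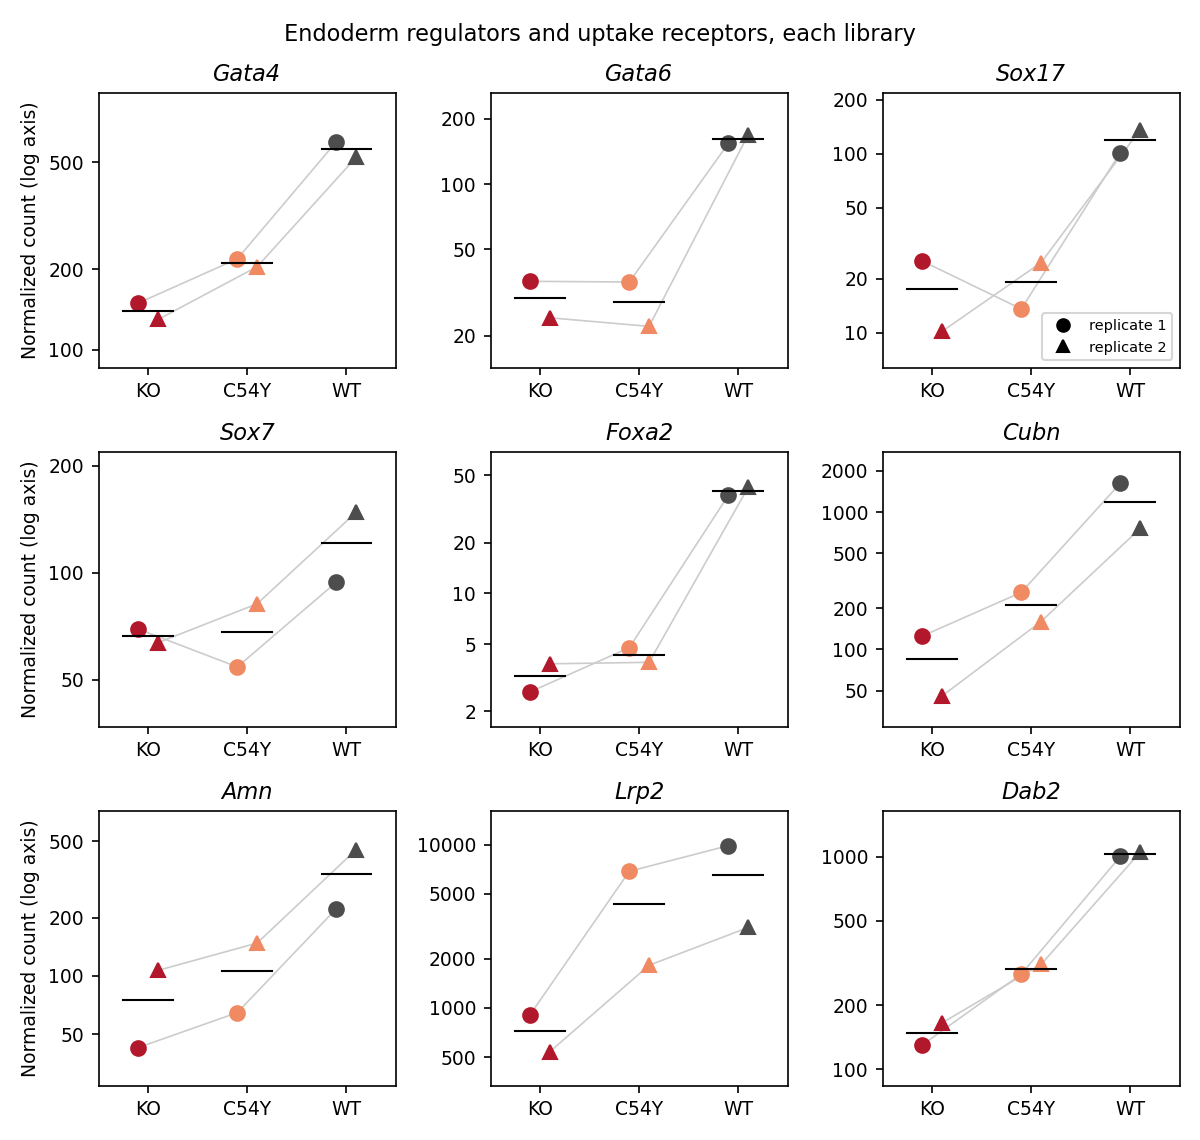
Normalized counts of the 9 genes in each library, on a log scale, with KO, C54Y and WT from left to right, a symbol for each replicate, a black bar at the mean and grey lines joining libraries of the same replicate number. In all 9 genes both KO points lie below both WT points, and in Lrp2 the C54Y points overlap the WT points.

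In all 9 genes both KO libraries lay below both WT libraries, which held for 13.6% of all genes tested, and in all 9 the difference was negative in both replicates, which held for 29.5%. The median log2 fold change of the set was -2.72, against 0.03 over all genes tested. The 8 calls were kept when each of the 6 libraries was left out in turn, and without KO replicate 1 Sox7 was called too (adjusted p = 0.0161, limma). The calls rest on the replicate block. With genotype alone, limma and edgeR each called 0 genes of the table in this comparison, with 1049 and 1059 genes at an unadjusted p under 0.05. In limma these held 8 of the 9 members, against 6.86% of all genes tested. DESeq2 with genotype alone called 7 members lower, against 0.563% of all genes tested.

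The second comparison asks whether the missense change gives the same differences. Between C54Y and WT cells 7 of the 9 genes fell, where 0.399% of all genes tested were called lower, and Sox7 and Lrp2 did not pass the test. The 7 again include Foxa2, which passed the filter only through its WT libraries. The median log2 fold change of the set was -1.79, against -0.00 over all genes tested. Both C54Y libraries lay below both WT libraries in 8 genes, which held for 8.69% of all genes tested, and the difference was negative in both replicates in all 9, which held for 32.6%. The KO and C54Y comparisons share their WT libraries.

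Gata6 had normalized counts of 35.4 and 22.1 in C54Y and 154 and 169 in WT, a log2 fold change of -2.44 ± 0.34 (adjusted p = 0.0116, limma). Gata4 had 218 and 204 in C54Y and 595 and 521 in WT, a log2 fold change of -1.39 ± 0.22 (adjusted p = 0.02005, limma). Both C54Y libraries were well under both WT libraries in these 2 GATA genes. Sox17 had 13.6 and 24.7 in C54Y and 102 and 136 in WT, a log2 fold change of -2.55 ± 0.49 (adjusted p = 0.0434, limma). Foxa2 had 7 and 3 reads in C54Y and 51 and 33 reads in WT, so that the C54Y level was 0.125 of WT in replicate 1 (95% exact interval 0.0478 to 0.276, counting error only) and 0.0918 in replicate 2 (0.0180 to 0.293), with a fitted log2 fold change of -2.74 ± 0.47 (adjusted p = 0.0317, limma). Sox7 had 54.4 and 81.8 in C54Y and 94.1 and 148 in WT and was not called, with a log2 fold change of -0.80 ± 0.31 (95% interval -1.51 to -0.10, adjusted p = 0.329, limma).

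Among the receptor and adaptor genes, 3 of 4 fell in C54Y. Cubn had 260.4 and 159.8 in C54Y and 1626 and 760.5 in WT, a log2 fold change of -2.43 ± 0.25 (adjusted p = 0.00301, limma). Dab2 had 281 and 312 in C54Y and 1006 and 1053 in WT, a log2 fold change of -1.79 ± 0.21 (adjusted p = 0.00492, limma). Amn had 64.6 and 148 in C54Y and 223 and 452 in WT, a log2 fold change of -1.68 ± 0.26 (adjusted p = 0.0174, limma). In these 3 genes the C54Y libraries did not overlap the WT libraries.

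Lrp2 was the exception. It had 6855 and 1824 in C54Y and 9841 and 3106 in WT, so that C54Y replicate 1 was above WT replicate 2. Within replicates it was lower in C54Y by 0.52 and 0.77 on the log2 scale, and the log2 fold change of -0.64 ± 0.25 (95% interval -1.21 to -0.08) was not called (adjusted p = 0.323, limma).

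The C54Y calls depended on single libraries more than the KO calls did. Without C54Y replicate 2, 3 members were called, without WT replicate 2 it was 4, and without C54Y replicate 1 it was 5. The calls of Cubn and Dab2 were kept in all 6 fits. Gata4 was lost without C54Y replicate 1 (adjusted p = 0.100, limma), C54Y replicate 2 (0.172) or WT replicate 2 (0.0527), Sox17 without C54Y replicate 1 (0.0916) or WT replicate 2 (0.0591), and Foxa2 without C54Y replicate 2 (0.208) or WT replicate 2 (0.0697). Gata6 (0.0558) and Amn (0.148) were lost without C54Y replicate 2. Lrp2 was called lower without KO replicate 1 (adjusted p = 3.71e-05, limma) or KO replicate 2 (0.000223), which leaves the C54Y and WT libraries in place and changes the estimate of the spread.

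With genotype alone, limma and edgeR each called 0 genes of the table in C54Y against WT, with 252 and 253 genes at an unadjusted p under 0.05. In limma these held 6 of the 9 members, against 1.65% of all genes tested. DESeq2 with genotype alone called 2 members lower, against 0.0589% of all genes tested.

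**Figure D2:**
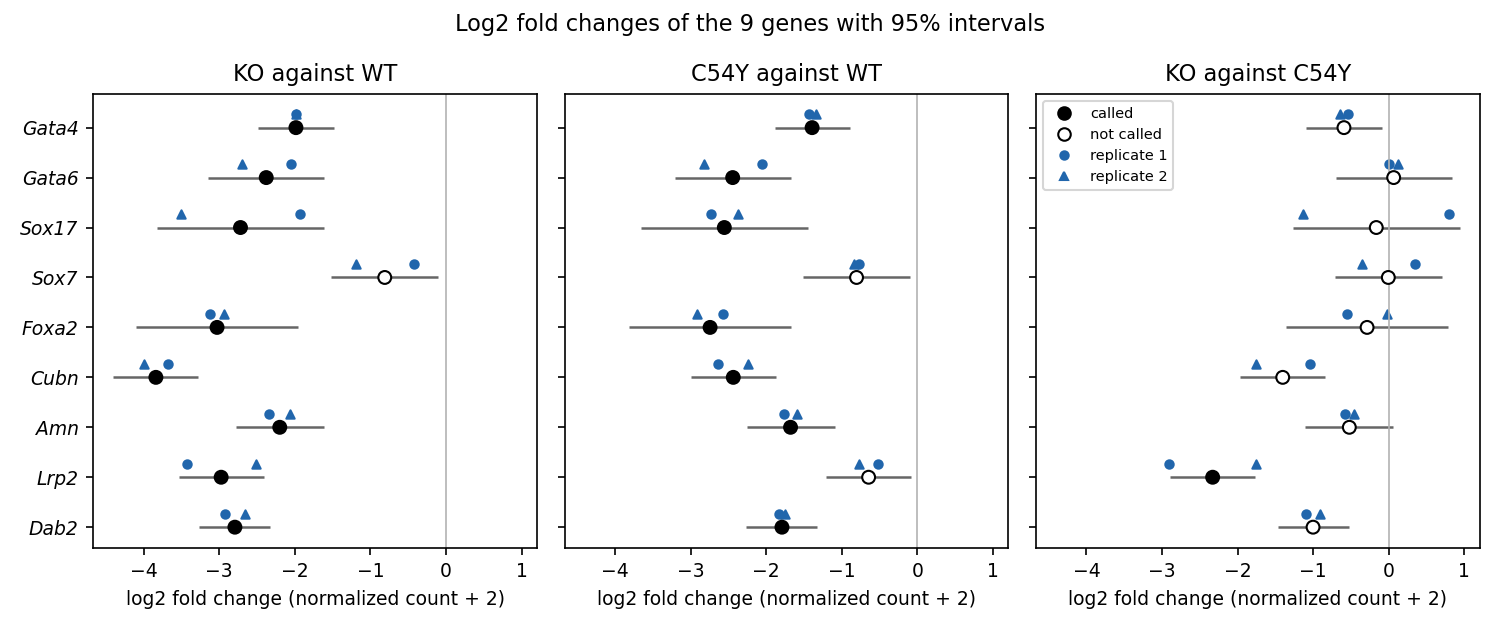
Log2 fold changes of the 9 genes, in KO against WT, C54Y against WT and KO against C54Y, with blue symbols for each replicate and a black symbol (filled where called) for the fitted value with its 95% interval. The KO and C54Y values lie close together for Gata6 (-2.38 and -2.44) and far apart for Lrp2 (-2.97 and -0.64).

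The third comparison sets the mutants against each other. Lrp2 was lower in KO than in C54Y, by 2.33 ± 0.25 on the log2 scale (KO minus C54Y -2.33, adjusted p = 0.0161, limma), or 5.03-fold. It had 911 and 541 in KO and 6855 and 1824 in C54Y, and the libraries did not overlap. It was the only one of the 9 called, where 0.144% of all genes tested were called lower in KO than in C54Y, and its call was kept in all 6 fits that left a library out.

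The other 8 genes were not called between the mutants, and their intervals say how large a difference remains possible. For Cubn the log2 fold change was -1.40 (95% interval -1.97 to -0.84, adjusted p = 0.0609, limma), and for Dab2 -1.001 (-1.47 to -0.53, adjusted p = 0.0868). Both were lower in KO in both replicates, and both were called by limma without either of the KO or either of the WT libraries, and by DESeq2 with the block (adjusted p = 0.000191 and 0.00393), which called 1.73% of all genes tested lower. Gata4 (-0.59, interval -1.09 to -0.10, adjusted p = 0.252, limma) and Amn (-0.52, interval -1.10 to 0.06, adjusted p = 0.377) were also lower in KO in both replicates.

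For Gata6 the log2 fold change between KO and C54Y was 0.07 (95% interval -0.70 to 0.83, adjusted p = 0.9496, limma), for Sox7 -0.01 (-0.71 to 0.70, adjusted p = 0.996) and for Sox17 -0.16 (-1.27 to 0.94, adjusted p = 0.907). Sox17 was higher in KO in replicate 1 (0.80) and lower in replicate 2 (-1.13), and Sox7 likewise (0.34 and -0.35). The sign of these 3 values changed with the processing. Foxa2 (-0.29, adjusted p = 0.825, limma) rests on 3 to 7 reads in these libraries. Over the set, 5 genes had KO libraries wholly below C54Y libraries (8.84% of all genes tested) and 6 were lower in KO in both replicates (25.7%).

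Levels were compared between genes as RPKM, read counts scaled to exon length and to library size. In WT cells Lrp2 had the highest mean, 11.7 ± 10.2 RPKM (SD, n = 2), with 18.9 in replicate 1 and 4.47 in replicate 2. It was followed by Amn (4.88 ± 1.42), Gata4 (4.05 ± 1.19), Dab2 (3.92 ± 0.67) and Cubn (2.36 ± 1.60), and each neighbour in this run overlapped the next. Sox7 (0.996 ± 0.115) lay below them without overlap, Gata6 (0.690 ± 0.096) and Sox17 (0.684 ± 0.003) overlapped each other, and Foxa2 (0.473 ± 0.060) was lowest.

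In KO cells Lrp2 (1.13 RPKM), Amn (0.973) and Gata4 (0.912) were again highest. Sox7 (0.513) came next, above Dab2 (0.502), with which it overlapped, and above Cubn (0.153), while in WT it ranked below both. Gata6 averaged 0.119, Sox17 0.0985 and Foxa2 0.0335 RPKM in KO. In C54Y cells Lrp2 (7.78 ± 7.26 RPKM, SD, n = 2) stood above Amn (1.52) without overlap, and Sox7 (0.560) ranked below Dab2 (1.12) and above Cubn (0.404), with which it overlapped.

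The ratio of Amn to Cubn in RPKM was 2.76 and 18.9 in KO replicates 1 and 2, 2.01 and 7.51 in C54Y, and 1.11 and 4.81 in WT. Within each replicate it was highest in KO and lowest in WT, and it was higher in replicate 2 of every genotype. The ratio of Lrp2 to Cubn was 6.51 and 10.6 in KO, 23.5 and 10.2 in C54Y and 5.41 and 3.65 in WT.

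The 9 genes varied differently between replicate numbers. Averaged over genotypes, replicate 2 minus replicate 1 was 1.16 on the log2 scale for Amn, -1.07 for Cubn and -1.44 for Lrp2, so that the partners in the receptor complex moved in opposite directions between replicates. The averages of the others lay between -0.34 (Gata6) and 0.36 (Sox7). An average can hide opposite shifts, as for Sox17, with -1.16 in KO, 0.77 in C54Y and 0.42 in WT.

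Other cells in the cultures were followed through marker lists. The sum of 24 fibroblast feeder markers was 4137 and 40617 normalized counts in KO replicates 1 and 2, 13794 and 44481 in C54Y, and 17448 and 37900 in WT. KO replicate 1 was thus far below the other libraries, while in replicate 2 the KO sum was slightly above WT. Of 22 tested feeder markers 3 fell in KO, where 7.41% of all genes tested were called lower. Cthrc1 was called in every fit that left a library out, Mmp2 except without WT replicate 1, and Tbx15 except without C54Y replicate 2 or either WT library. The feeder markers Lum and Fap were too low to be tested in any comparison, with Lum at 0 in both KO, both WT and the second of the C54Y libraries, and Fap at 0 in both KO and the first of the C54Y libraries. In KO against WT the log2 differences of the members ran from -0.43 (Sox7) to -3.68 (Cubn) in replicate 1. In replicate 2 they ran from -1.19 (Sox7) to -3.995 (Cubn). The part of the feeders in these differences was not tested.

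The sum of 12 trophoblast markers was 5840 and 15238 in KO, 18340 and 19692 in C54Y, and 31613 and 22934 in WT. Like the sum of the members, it was lowest in KO and highest in WT in both replicates. The median log2 difference of the 10 tested markers in KO against WT was -1.91 in replicate 1 and -0.17 in replicate 2. Hand1 (-1.87, adjusted p = 0.00493, limma), Cdx2 and Krt7 fell in KO while Tfap2c rose, against 7.41% of all genes tested called lower and 8.9% higher. In C54Y limma called 0 of the 10, and 4 had an unadjusted p under 0.05. The call of Cdx2 was lost without KO replicate 1, that of Tfap2c without WT replicate 2, and that of Krt7 without WT replicate 1 or either C54Y library. Of the placental markers in the list, Tpbpa was at 0 in KO, in C54Y replicate 2 and in WT. Of the visceral endoderm markers, Ttr was at 0 in all 4 mutant libraries and had 8 and 3 reads in WT, and Afp had at most 3 reads in any library. The part of trophoblast cells in the differences of the 9 genes was not tested.

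Nanog, which opposes Gata6 in the blastocyst, rose in KO. It had normalized counts of 26827 and 20998 in KO, 12477 and 15219 in C54Y, and 9895 and 7539 in WT. The log2 fold change was 1.46 in KO against WT (adjusted p = 0.00144, limma) and 0.67 in C54Y against WT (adjusted p = 0.117, not called). In KO 7 of the 12 ES cell markers rose, with a median of 0.70, where 8.9% of all genes tested were called higher. In C54Y 1 did (Zfp42, 2.44, adjusted p = 0.000877, limma), where 0.962% were called higher.

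**Figure D3:**
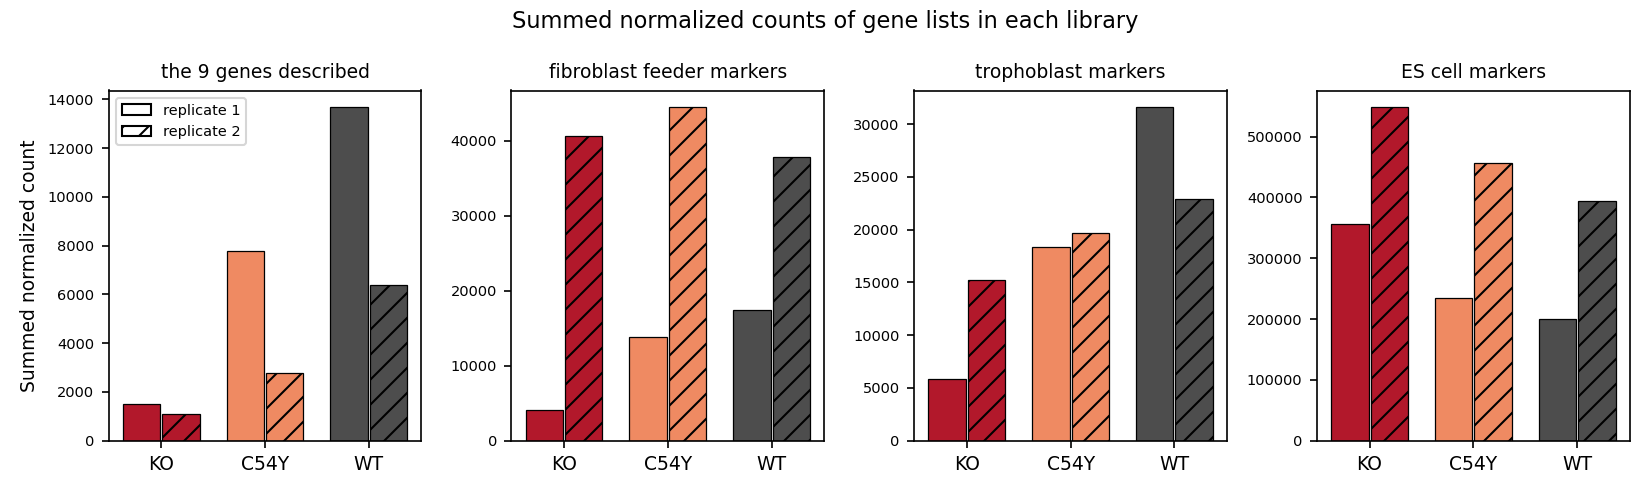
Summed normalized counts of the 9 genes and of the fibroblast feeder, trophoblast and ES cell markers in each library, as bars from 0 on a linear scale, plain for replicate 1 and hatched for replicate 2, with KO, C54Y and WT from left to right. The sum of the 9 genes, which Lrp2 dominates, is 1492 and 1091 in KO, 7788 and 2779.9 in C54Y and 13678 and 6388 in WT, and the feeder sum is lowest in KO replicate 1.

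Other genes of the primitive and visceral endoderm moved in both directions. Of 25 tested, 6 were higher and 6 lower in KO, against 8.9% and 7.41% of all genes tested, and the median of -0.09 was near that of all genes (0.03). The lower genes included Clic6 (-2.81, adjusted p = 0.000945, limma), Amot, a membrane-associated scaffold protein of the visceral endoderm (-2.30, adjusted p = 0.00237), and Pdgfra, a receptor that marks primitive endoderm (-1.83, adjusted p = 0.00584). The higher genes included the apolipoprotein gene Apoc2 (2.70, adjusted p = 0.00159) and Tdh, threonine dehydrogenase, which ES cells also express at high levels (0.86, adjusted p = 0.00307).

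In C54Y, limma called Pdgfra lower (-2.05, adjusted p = 0.0164) and Otx2 higher (0.93, adjusted p = 0.0382), against 0.399% and 0.962% of all genes tested, and 11 genes of the list had an unadjusted p under 0.05. With the block, edgeR called 2 genes of the list and DESeq2 called 3. Pdgfra had 61.7 and 52.2 in KO, 49.0 and 48.1 in C54Y, and 272 and 157 in WT, with no overlap between either mutant and WT, and its calls were kept in all 6 fits that left a library out. The Otx2 call was lost without either C54Y library or without WT replicate 2.

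Of 17 tested genes of the parietal endoderm and basement membrane, 6 fell in KO, among them the collagen IV genes Col4a1 (-1.84, adjusted p = 0.00553, limma) and Col4a2 (-1.89, adjusted p = 0.0111) and the laminin gene Lama1 (-0.84, adjusted p = 0.00768), while the basement membrane gene Nid1 rose (1.09, adjusted p = 0.00562). Of all genes tested, 7.41% were called lower and 8.9% higher in KO. The median of the list was -1.15 in replicate 1 and -0.18 in replicate 2, beside the low feeder sum of KO replicate 1, whose part was not tested. The calls of both collagen genes were lost without KO replicate 1, that of Col4a2 also without either C54Y library, and that of Lama1 without WT replicate 1. In C54Y limma called Lama1 lower (-1.30, adjusted p = 0.00492), against 0.399% of all genes tested, and 7 genes of the list had an unadjusted p under 0.05. With the block, edgeR called 1 gene of the list and DESeq2 called 5.

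Of the general endocytic machinery, 4 of 27 tested genes were higher and 1 was lower in KO, against 8.9% and 7.41% of all genes tested. With so few genes these counts do not set the list apart from the rest of the table. The clathrin light chain gene Cltb (1.16, adjusted p = 0.00205, limma), the recycling GTPase gene Rab4a (1.08, adjusted p = 0.00263), the phosphatase gene Ocrl (0.91, adjusted p = 0.0135) and the clathrin adaptor gene Ap2m1 rose in KO. Myo6, the myosin that works with DAB2 in uptake, fell (-0.94, adjusted p = 0.0109). The call of Myo6 did not hold without WT replicate 1, nor that of Ap2m1 without WT replicate 2. In C54Y limma and edgeR with the block called 0 of the 27, DESeq2 with the block called 1, and 3 had an unadjusted p under 0.05 in limma.

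Of 15 tested relatives of megalin and of the adaptors, Sorl1 rose in KO (1.06, adjusted p = 0.00406, limma) and Lrp8 fell (-0.66, adjusted p = 0.0380). For this list and those that follow, 8.9% of all genes tested were called higher and 7.41% lower in KO. In C54Y Sorl1 rose (0.86, adjusted p = 0.0428, limma), where 0.962% of all genes tested were called higher. The C54Y call of Sorl1 was lost without either C54Y library or WT replicate 2, and the call of Lrp8 without any of the C54Y or WT libraries. Of 12 tested genes for ligands of cubilin and megalin and their handling, Clu fell in KO (-1.08, adjusted p = 0.0454, limma), a call lost without KO replicate 1, C54Y replicate 2 or WT replicate 1.

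Of 8 tested relatives of the transcription factors, Foxa3 (-1.25, adjusted p = 0.0253, limma) and Sox18 fell and Gata2 rose in KO. All 3 calls were lost without WT replicate 2, those of Sox18 and Gata2 also without WT replicate 1 or either C54Y library, and that of Sox18 also without KO replicate 1. Of 15 tested genes of the FGF pathway, which drives primitive endoderm specification, the feedback phosphatase gene Dusp6 (-1.53, adjusted p = 0.000945, limma) and the feedback inhibitor gene Spry2 (-0.65, adjusted p = 0.0224) fell in KO, while the ligand gene Fgf4 (0.79, adjusted p = 0.0100) and the kinase gene Map2k2 (0.49, adjusted p = 0.0423) rose. The call of Spry2 was lost without WT replicate 2 and that of Map2k2 without any of the C54Y or WT libraries. Of 11 tested definitive endoderm and gut genes, Gsc rose and Mixl1, Cdx2 and Epcam fell in KO, and the call of Gsc was lost without KO or WT replicate 2, that of Mixl1 without either WT library and that of Epcam without any of the C54Y or WT libraries.

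In C54Y limma called 0 genes of the ligand, relative, FGF and definitive endoderm lists, with 2, 1, 4 and 3 at an unadjusted p under 0.05. With the block, edgeR called 0 in each, and DESeq2 called 1 ligand and 1 FGF gene.

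**Figure D4:**
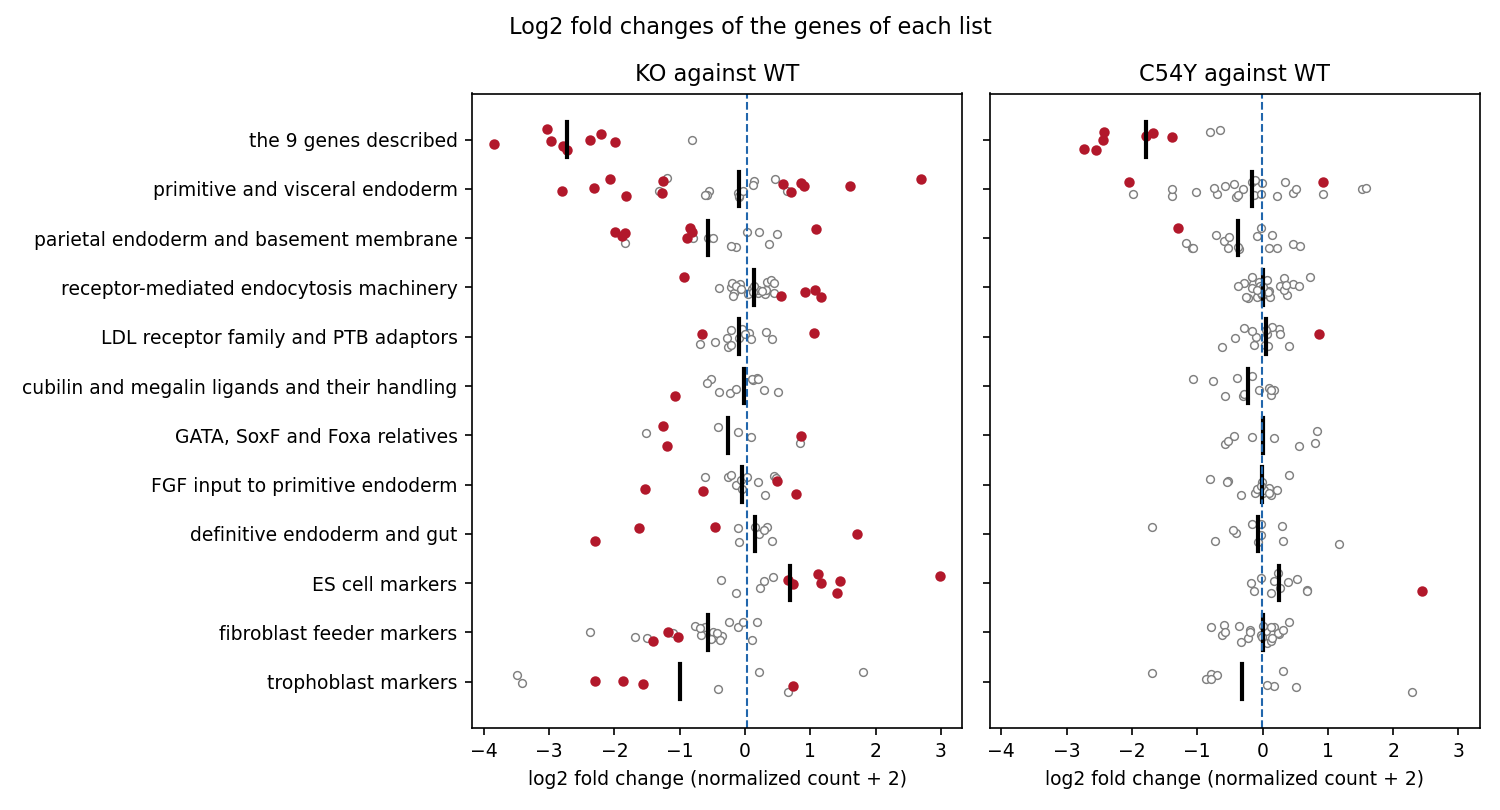
Log2 fold changes in KO against WT and C54Y against WT of the 9 genes and of each other gene list, with a filled red point for each gene called, an open point for each other gene tested, a black line at the list's median and a dashed line at the median of all genes tested. The 9 genes have medians of -2.72 in KO and -1.79 in C54Y, while the primitive and visceral endoderm list has medians of -0.09 and -0.15.

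The genes most like Cubn were sought over the 4 within-replicate differences of the mutants from WT, among 12431 genes that averaged at least 50 normalized counts. The nearest were Srgn (root mean square distance of 0.456 on the log2 scale), Csn3 (0.472), Shisa6 (0.484), Dph6 (0.699) and Fam73a (0.705), and of the members Foxa2 (0.689), Dab2 (0.900) and Sox17 (0.912) lay closest. The nearest to Gata4 were Flrt3 (0.110), BC052040 (0.117), Bhlhe41 (0.165), Irs3 (0.286) and Igsf11 (0.290), and Amn lay 0.273 from it. Each distance rests on 4 differences that share WT libraries.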

How the data were processed

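The deposited values are a signal, the normalized count of each gene in each library, which the authors made from reads per gene. HTSeq, TopHat2 2.1.0, Trimmomatic, CASAVA and DESeq2 are the tools and mm9 the build in the submitters' processing notes, and the strand setting, annotation and filters are not given in the sources used here. Libraries were made from total RNA with a TruSeq kit, per the labels. Divided by the step of its column, each value came out whole (100% within 1e-06), which gave back whole reads.

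Differences were fitted over all genes tested with limma 3.58.1 (trend, robust; R 4.3.3) on log2(normalized count + 2), with genotype and replicate number as terms. This scale understates the change of low genes. Within each comparison, Benjamini-Hochberg adjusted p-values were called at 0.05. The table stayed on the deposited scale, and edgeR 4.0.16 and DESeq2 1.42.0 on the recovered reads were alternatives. Replicate numbers pair the samples, since deviations of same-numbered libraries correlated at 0.907 (C54Y and WT), 0.869 (KO and WT) and 0.895 (KO and C54Y), but the labels do not say what a number marks. The block was used because the genes are compared within replicate number. The fitting was tested on simulated data in which all genotypes shared the same replicate effect, so it does not test the block.

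The members and the gene lists were chosen with earlier results of these data known. The text names the members, Thap1, Nanog, up to 4 genes per list with the smallest p, the genes in counts of 5 or fewer, and the 5 genes nearest to Cubn and to Gata4. RPKM used GENCODE M21 exon lengths, found for 94.9% of genes. Promoter sequences came from RefSeq and were searched for 5 of the 9 genes. None was at hand for Gata4, Sox17 and Sox7, and Gata6, on chromosome 18, was left out of the search. Cubn, Dab2, Sox17 and Gata6 overlap exons of antisense genes (2.46%, 2.87%, 16.9% and 1.43% of their exon length), and their reads cannot be told apart without strand. Intervals of read counts cover counting error only.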

Additional observations from a re-analysis of the deposited data

How the results depend on the processing

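The limma calls rest on replicate number as a block. Without the block limma and edgeR each called 0 members in every comparison and 0 genes of 2494 (KO against WT), 208 (C54Y against WT) and 29 (KO against C54Y). DESeq2 without the block called 235, 28 and 3 genes, with 2 members in C54Y against WT and 0 in KO against C54Y. DESeq2 with the block called 479 genes in C54Y against WT, and 453 genes with 3 members in KO against C54Y. With only the genotypes compared in the fit, 1743 genes were called in C54Y against WT and 677 genes with 3 members in KO against C54Y. Leaving out each library in turn left 8 to 9 members and 1749 to 4861 genes in KO against WT, 3 to 8 members and 69 to 1818 genes in C54Y against WT, and 1 to 3 members and 7 to 2831 genes in KO against C54Y. Such a fit assumes that the lone sample varies like the other groups. No member changed sign against WT in any setting. Between KO and C54Y, Gata6 (0.07) was -0.0236 in edgeR with the block and -0.0204 without it, Sox7 (-0.01) was 0.0195 in DESeq2 with the block, and over the libraries left out Gata6 ran from -0.15 to 0.28, Sox17 from -1.04 to 0.71 and Sox7 from -0.37 to 0.36. In C54Y against WT, Sox17 was lost at a pseudocount of 0.5 (adjusted p = 0.0559, limma) or a minimum of 50 (0.0553), and Foxa2 at a pseudocount of 0.5 (0.0547). With TMM scaling 1095 genes were higher and 1347 lower in KO against WT, where the deposited scaling gave 1361 and 1133, and the calls of Gata2, Map2k2 and Krt7 in KO and of Sorl1 in C54Y were lost. The cause was not tested. Foxa2 could not be tested at a minimum of 50, and its depth of 3 to 7 reads in mutant libraries limits its values.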
